A study of Mus musculus with 6 samples.

Results

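Lysosome and autophagy genes were followed in mouse embryonic stem (ES) cells that lacked HP1α and HP1β. The set holds 34 genes, named as a list of lysosomal and autophagy genes and found by their Entrez identifiers, and all 34 were among the 24467 gene IDs of the count table. Of these, 33 passed the filter on low counts and were tested. The exception was Ctsh, a lysosomal aminopeptidase, with 0.0803 to 0.215 CPM, which are counts scaled to the size of the library, in the deleted libraries and 0.062 and 0.146 CPM in the control. By role the set holds 7 lysosomal proteases, 9 genes of glycosidases and lipid handling, 6 genes of the lysosomal membrane, its channel and its proton pump, 9 genes of the autophagosome machinery and 3 genes of transcriptional control.

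RNA was sequenced from 2 clones of ES cells labelled as double knockout (DKO) of Hp1α (Cbx5) and Hp1β (Cbx1), and from 1 control clone labelled Hp1α/β F/F with genotype WT, with 2 libraries per clone. HP1 proteins bind histone H3 methylated on lysine 9 in heterochromatin. Every clone was grown in 2i medium, which holds the GSK3 inhibitor CHIR99021 and the MEK inhibitor PD184352, together with leukaemia inhibitory factor and a serum replacement, so the cells were held near the naive pluripotent state, and no other treatment was given. The labels do not say when or how the floxed alleles were deleted, nor that libraries of the same clone were grown as separate cultures, so p-values measure the spread between these libraries, which may be technical. Because the control is a single clone, effects of genotype and differences among clones cannot be told apart.

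Lysosomes are acidic organelles in which cathepsins, glycosidases and lipid-handling proteins break down material brought in from outside the cell or from the cytoplasm. In autophagy, the ULK1 kinase and the Beclin 1 complex start a membrane that proteins of the LC3 and GABARAP families help to close around its cargo, and the vesicle then fuses with a lysosome. Many of these genes carry a short promoter element, known as the CLEAR element, that the transcription factors TFEB and TFE3 bind. Folliculin, the product of Flcn, acts with the mTORC1 kinase at the lysosome to keep these factors out of the nucleus, and in mouse ES cells folliculin and TFE3 are known for their part in the exit from the naive state.

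The core of the CLEAR element is written TCACGTG here. It was searched on both strands in RefSeq promoter windows of the GRCm38.p6 build, from 250 bases before to 50 bases after a gene's start. The Lamp1 window is shown because it holds 4 separate copies and because Lamp1 had the highest level of the set. The short sites of Ctsd, Mcoln1, Gla, Glb1 and Gaa, each with 12 bases on either side, show the same core in other members. The Gabarapl1 stretch is shown because Gabarapl1 had the largest increase of the set in DKO against control, and it holds no copy. Each is given 5′ to 3′ on the strand of its gene, with TCACGTG or its complement in capitals. They lie at chr8:13159011-13159160 (plus strand, Lamp1), chr7:142387907-142387938 (minus, Ctsd), chr8:3500461-3500492 (plus, Mcoln1), chrX:134601181-134601212 (minus, Gla), chr9:114401017-114401047 (plus, Glb1), chr11:119267810-119267840 (plus, Gaa) and chr6:129533092-129533191 (plus, Gabarapl1).
Lamp1: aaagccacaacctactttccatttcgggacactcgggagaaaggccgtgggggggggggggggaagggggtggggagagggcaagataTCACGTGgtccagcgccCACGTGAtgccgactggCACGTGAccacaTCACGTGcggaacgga
Ctsd: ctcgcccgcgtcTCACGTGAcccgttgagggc
Mcoln1: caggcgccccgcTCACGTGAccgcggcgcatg
Gla: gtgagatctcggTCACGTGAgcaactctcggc
Glb1: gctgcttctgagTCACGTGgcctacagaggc
Gaa: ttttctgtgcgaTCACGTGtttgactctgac
Gabarapl1: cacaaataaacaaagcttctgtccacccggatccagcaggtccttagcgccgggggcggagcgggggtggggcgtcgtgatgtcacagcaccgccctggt

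A window was given for 28 of the 34 genes, and 8 of the 28 (28.6%) held TCACGTG, namely Atp6v0d1, Ctsa, Ctsd, Gaa, Gla, Glb1, Lamp1 and Mcoln1. The same core was in 6.85% of the windows of 11068 tested protein-coding genes and in 4.29% of the windows of all 27025 genes. The longer palindrome TCACGTGA, which contains the core, was in 5 of the 28 (17.9%) and in 2.03% of the tested protein-coding genes. The shorter CACGTG, which the core contains, was in 9 of the 28 (32.1%) and in 11.5% of the tested protein-coding genes. No window was given for Ctsb, Ctsh, Npc1, Atp6v1h, Becn1 and Map1lc3a. For Ulk1, Ctsc, Cd63, Ctsl and Tfe3 the window lies at a start inside the outer end of the RefSeq gene. Ctsa has windows at its gene end and at a start 901 bases inside it, and its matches lie in the inner one. A match is a run of letters and was not measured as a binding site.

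Libraries held 27876620 and 27822664 counts in DKO clone 1, 24628872 and 26772203 in DKO clone 2, and 34641560 and 32327537 in the control. Replicate libraries differed most in the control, where the chi-square per gene of their counts was 41.6, against 11.5 in DKO clone 1 and 12.1 in DKO clone 2. The control libraries were also the deepest, and the cause of this difference was not tested. IDs without a RefSeq match took 1.62% of the counts in control replicate 1 and 0.389 to 0.744% in the other libraries. The 34 genes together took 0.323 to 0.356% of the counts of a library. The targeted genes were low in every deleted library. Cbx5 had 191 to 205 CPM in the DKO libraries and 809 and 813 CPM in the control, and Cbx1 had 43.9 to 49.3 CPM in the DKO libraries and 223 and 227 CPM in the control. Which exons were deleted is not given in the sources used here, so these counts may include exons outside the deleted part. Summed ES cell markers lay at 5058 to 5380 CPM in the DKO libraries and at 5054 and 5290 CPM in the control. Of these 10 markers, Nanog rose in DKO (log2 change 0.33, adjusted p = 0.028), Tdgf1 fell (-0.28, adjusted p = 0.042) and 8 did not pass the test. Summed markers of fibroblasts and feeder cells were low and differed by genotype, at 7.16 to 8.67 CPM in the DKO libraries and 12.6 and 15.5 CPM in the control. Of those 12 markers, 7 lay under 1 CPM in every library, Twist2 was at 0 in all 6 libraries, and 2 of the 5 tested, Acta2 (log2 change -1.90, adjusted p = 0.0063) and Twist1 (-0.99, adjusted p = 0.022), fell in DKO. The markers named in this paragraph were chosen after their values were seen. Macrophage markers summed to 5.10 to 7.31 CPM in the DKO libraries and 7.13 and 9.05 CPM in the control, with 8 of 10 under 1 CPM in every library and C1qa at 0, and 1 of the 4 tested, Fcgr3 (log2 change -1.43, adjusted p = 0.0040), fell in DKO. Primitive endoderm markers summed to 34.7 to 42.3 CPM in the DKO libraries and 39.6 and 41.5 CPM in the control, with 6 of 10 under 1 CPM in every library. Fibroblasts and macrophages express many lysosomal genes, and the part of these cells in the results below was not tested.

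In DKO against control, 5 of the 33 tested genes rose and none fell at an adjusted p of 0.05, by the quasi-likelihood F test of edgeR with Benjamini-Hochberg adjustment over 14771 genes. The 5 were Ctsl, Ctsz, Psap, Ulk1 and Gabarapl1, with increases between 1.21-fold and 1.9-fold. Over all tested genes the share called was 5.06% in the higher direction and 3.62% in the lower direction, against 15.2% and 0 of the 33. At an unadjusted p of 0.05, 8 of the 33 passed, a share close to that of all tested genes (3433 of 14771). DESeq2 and limma-voom also called none lower. The median log2 change of the 33 was 0.08, and that of all tested genes was 0.0004. In these bulk samples, more cells of a type and more RNA per cell cannot be told apart. When either control library was left out, Ctsl was the only member still called, while the calls over all genes also dropped, to 158 higher without control replicate 1 and 210 without control replicate 2, against 748 with both.

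**Figure D1:**
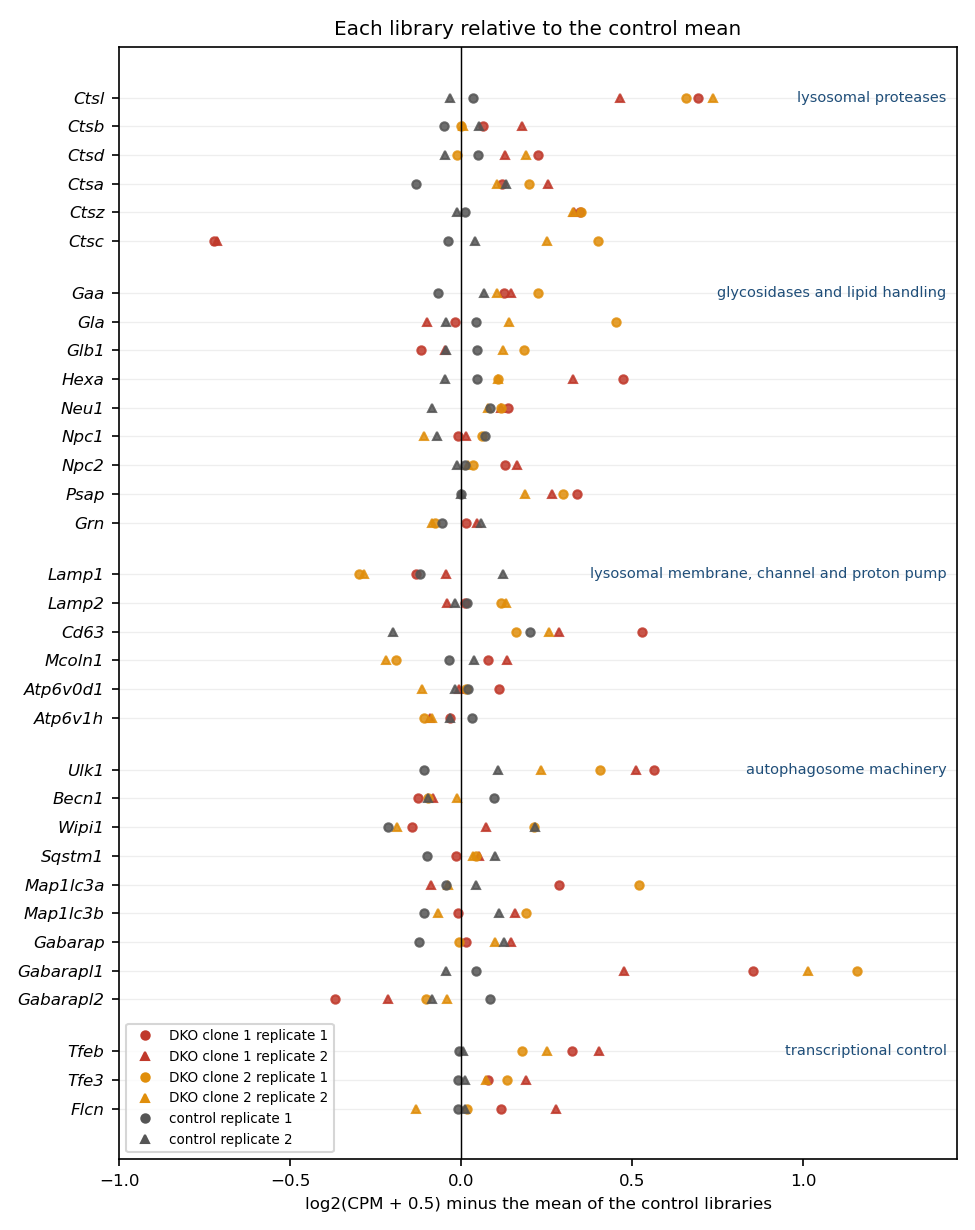
Each point is 1 library, placed by log2(CPM + 0.5) minus the mean of the control libraries, for the 33 tested genes grouped by role. All DKO libraries lie right of both control libraries for Ctsl, Ctsz, Psap, Ulk1 and Gabarapl1, and the clones lie on opposite sides of the control for Ctsc. The DKO libraries also all lie right for Gaa, Hexa, Npc2, Tfeb and Tfe3, which were not called in DKO, and all left for Atp6v1h. The share of all tested genes with such a separation was not computed.

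Levels were compared between genes only as CPM per kb of the deposited gene width. On this scale the set spanned a mean over all libraries of 283 for Lamp1, which encodes the main glycoprotein of the lysosomal membrane, down to 0.748 for Wipi1, which encodes a phosphoinositide-binding protein of early autophagosomes, among the tested genes. After Lamp1 came Gabarapl2 at 75.3, Ctsd at 73.1, Sqstm1 at 63.2 and Psap at 53.7 CPM per kb. How the width was derived is not given in the sources used here, and it may exceed the length of the transcripts present. The order depends on it: Ctsl, with a width of 6489 bases, had rank 9 on this scale, at 35.9 CPM per kb.

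**Figure D2:**
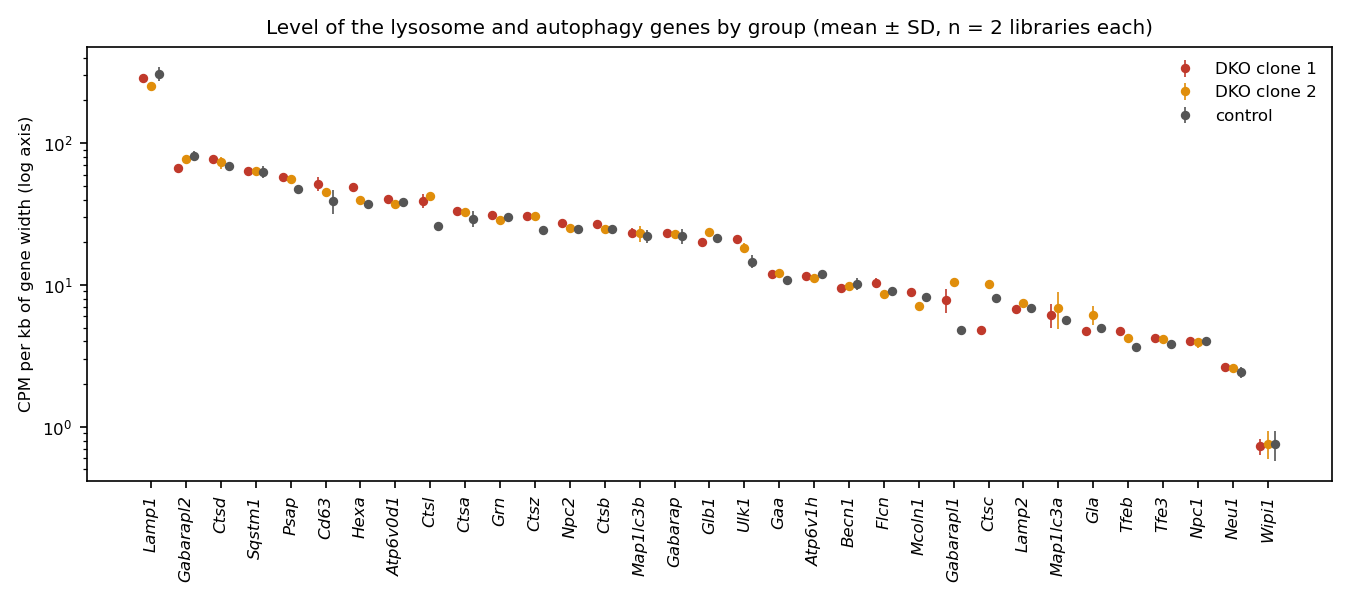
CPM per kb of gene width on a log axis for the 33 tested genes, ordered by their mean over all libraries, as mean ± SD of the 2 libraries of each clone. Lamp1 stands above all others at 283 CPM per kb on average and Wipi1 is lowest at 0.748.

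Among the lysosomal proteases, 2 of 6 tested genes rose in DKO against control. Ctsl, which encodes the cysteine protease cathepsin L (Entrez 13039, chromosome 13, 64361890 to 64370772), had 274 and 234 CPM in clone 1 and 268 and 283 CPM in clone 2, against 174 and 166 CPM in the control. Every deleted library lay above both control libraries. The mean was 265 ± 21.4 CPM in DKO (SD, n = 4) and 170 ± 5.65 CPM in the control (SD, n = 2), a log2 change of 0.64 (SE 0.0822, adjusted p = 0.0014). The change was 0.58 in clone 1 (adjusted p = 2.8e-04) and 0.70 in clone 2 (adjusted p = 7.0e-05). The direct contrast of clone 2 against clone 1 gave 0.12 (SE 0.0788, adjusted p = 0.45). In the annotation, an antisense gene, Gm47123, covers 28.2% of the exon bases of Ctsl and a pseudogene on the same strand, Gm49230, covers 6.4%. Since the strand that was counted is not given in the sources used here, reads of these genes cannot be told apart from those of Ctsl. In all, 13 of the 34 genes share exon bases with another gene, 11 of them with one on the opposite strand. Besides that of Ctsl, the largest shares were 31.5% of Ctsd, with Gm49369 on the same strand, 29.6% of Becn1, with Cntd1, and 20.5% of Sqstm1, with Mrnip, so the levels of these genes carry the same uncertainty.

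Ctsz encodes cathepsin Z, a carboxypeptidase (Entrez 64138, chromosome 2, 174427494 to 174439039). It had 44.5 and 44.0 CPM in clone 1 and 44.7 and 44.0 CPM in clone 2, against 35.2 and 34.7 CPM in the control. The deleted clones were nearly level with each other and both lay above the control. The mean was 44.3 ± 0.364 CPM in DKO (SD, n = 4) and 34.9 ± 0.377 CPM in the control (SD, n = 2), a log2 change of 0.34 (SE 0.0757, adjusted p = 0.020). The change was 0.34 in each clone, with adjusted p = 0.0115 in clone 1 and 0.0114 in clone 2. The DKO call was lost if control replicate 1 (adjusted p = 0.13) or control replicate 2 (0.15) was left out. The clone 1 call was lost without clone 1 replicate 1 (adjusted p = 0.071), and the clone 2 call without control replicate 2 (0.052), clone 2 replicate 1 (0.079) or clone 2 replicate 2 (0.066).

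Ctsc differed between the deleted clones. It encodes cathepsin C, also called dipeptidyl peptidase 1, which activates serine proteases of immune cell granules (Entrez 13032, chromosome 7, 88278024 to 88315861). The values were 61.7 and 55.6 CPM in clone 2 and 28.1 and 28.2 CPM in clone 1, against 45.4 and 48.0 CPM in the control. The control thus lay between the clones, and no libraries of different clones overlapped. Clone 2 exceeded clone 1 by 1.06 on the log2 scale (SE 0.0873, adjusted p = 3.1e-05). Against control, Ctsc rose by 0.33 in clone 2 (SE 0.0846, adjusted p = 0.018) and fell by 0.73 in clone 1 (SE 0.0869, adjusted p = 1.2e-04). The genotype comparison gave -0.11 (adjusted p = 0.87). The increase in clone 2 was not called without control replicate 1 (adjusted p = 0.094) or without clone 2 replicate 1 (adjusted p = 0.18).

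Ctsd, which encodes the aspartic protease cathepsin D, had 206 and 192 CPM in clone 1 and 175 and 201 CPM in clone 2, against 182 and 170 CPM in the control. The groups overlapped and the change did not pass the test (log2 change 0.13, adjusted p = 0.33). Nor did those of Ctsb (0.06) and Ctsa (0.17), which encode cathepsins B and A. Summed over the 7 proteases, the level was 799 to 853 CPM in the DKO libraries and 678 and 694 CPM in the control, and every DKO library lay above both control libraries. Much of this gap was Ctsl, with a mean of 265 CPM in DKO and 170 CPM in the control. The sums for glycosidases and lipid handling and for transcriptional control also lay above both control libraries in every DKO library. For transcriptional control the gap was narrow, with 97.8 CPM in the lowest DKO library and 96.0 CPM in the highest control library. Those of the membrane genes and of the autophagosome machinery overlapped the control. The sum over all 34 genes overlapped too, at 3409 to 3560 CPM in DKO and 3258 and 3421 CPM in the control. Without Lamp1 it did not, at 2733 to 2781 CPM in DKO and 2502 and 2526 CPM in the control. How often sums of other genes separate in this way was not computed.

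Of the 9 genes of glycosidases and lipid handling, Psap rose in DKO and 8 did not pass the test. Psap encodes prosaposin, the precursor of the saposins that present sphingolipids to lysosomal enzymes (Entrez 19156, chromosome 10, 60277628 to 60302600). It had 164 and 155 CPM in clone 1 and 159 and 147 CPM in clone 2, against 129.2 and 129.3 CPM in the control. All deleted libraries lay above both control libraries, which were nearly identical. The log2 change was 0.27 in DKO (SE 0.0663, adjusted p = 0.029), 0.30 in clone 1 (adjusted p = 0.0091) and 0.24 in clone 2 (adjusted p = 0.030). The DKO call was lost when either control library was left out (adjusted p = 0.20 without replicate 1 and 0.19 without replicate 2) and in 3 of the 4 fits that left out a DKO library, those without clone 1 replicate 1 (adjusted p = 0.0504), clone 1 replicate 2 (0.0558) or clone 2 replicate 1 (0.0691). The clone 1 call was lost without clone 1 replicate 1 (adjusted p = 0.066), and the clone 2 call without control replicate 1 (0.11), control replicate 2 (0.11), clone 2 replicate 1 (0.24) or clone 2 replicate 2 (0.060).

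Hexa encodes the alpha subunit of beta-hexosaminidase, which degrades gangliosides (Entrez 15211, chromosome 9, 59539540 to 59565109). It had 79.6 and 79.6 CPM in clone 2 and 103 and 92.7 CPM in clone 1, against 76.3 and 71.4 CPM in the control. Clone 1 was high and clone 2 lay just above the control. Clone 2 was lower than clone 1 by a log2 difference of -0.30 (SE 0.0760, adjusted p = 0.036). Hexa rose by 0.40 in clone 1 against control (SE 0.0757, adjusted p = 0.0027), while clone 2 against control gave 0.11 (adjusted p = 0.39) and DKO against control 0.26 (adjusted p = 0.17). The difference between the clones was not called without clone 1 replicate 1 (adjusted p = 0.26), clone 2 replicate 1 (0.17) or clone 2 replicate 2 (0.20). The other 7 genes of this role had log2 changes in DKO between -0.02 for Grn, which encodes progranulin, and 0.15 for Gaa, which encodes the acid glucosidase of glycogen breakdown. Among them Gla encodes alpha-galactosidase A, Glb1 beta-galactosidase, Neu1 a sialidase, and Npc1 and Npc2 the proteins that pass cholesterol out of the lysosome.

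None of the 6 genes of the lysosomal membrane, channel and proton pump was called in DKO against control. Lamp1 (Entrez 16783, chromosome 8, 13159161 to 13175338) had 751 and 798 CPM in clone 1 and 669 and 676 CPM in clone 2, against 756 and 895 CPM in the control. Clone 2 lay below both control libraries, while clone 1 overlapped them. Lamp1 fell by 0.30 on the log2 scale in clone 2 against control (SE 0.0837, adjusted p = 0.030), and the change was -0.09 in clone 1 (adjusted p = 0.51) and -0.19 in DKO (adjusted p = 0.25). The direct contrast of clone 2 against clone 1 gave -0.20 (adjusted p = 0.18). The call in clone 2 was lost without control replicate 2, at -0.17 (adjusted p = 0.25), and when either library of clone 2 was left out (adjusted p = 0.14 without replicate 1 and 0.13 without replicate 2).

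Mcoln1 encodes mucolipin 1, the channel through which lysosomes release calcium (Entrez 94178, chromosome 8, 3500519 to 3515232). It had 34.5 and 33.8 CPM in clone 2 and 41.7 and 43.4 CPM in clone 1, against 38.5 and 40.5 CPM in the control. The control lay between the clones. Clone 2 was lower than clone 1 by a log2 difference of -0.32 (SE 0.0845, adjusted p = 0.042). Neither clone passed the test against control, with -0.21 in clone 2 (adjusted p = 0.12) and 0.11 in clone 1 (adjusted p = 0.43). The difference between the clones was lost in each of the 4 fits without 1 of their libraries (adjusted p = 0.13 and 0.17 without clone 1 replicates 1 and 2, 0.16 and 0.24 without clone 2 replicates 1 and 2).

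Cd63 encodes a tetraspanin of late endosomes and lysosomes (Entrez 12512, chromosome 10, 128896231 to 128912822). It had 100.04 and 84.5 CPM in clone 1 and 77.3 and 82.7 CPM in clone 2, against 79.5 and 60.1 CPM in the control, and the control libraries themselves differed widely. It rose in clone 1 (0.40, adjusted p = 0.033), a call that was lost without control replicate 2 (0.22, adjusted p = 0.24) and without clone 1 replicate 1 (adjusted p = 0.25), and gave 0.20 in clone 2 (adjusted p = 0.30). RefSeq names a pseudogene of Cd63, and how reads shared with it were counted is not given in the sources used here. Lamp2, the partner of Lamp1 in the membrane, and Atp6v0d1 and Atp6v1h, subunits of the proton pump that acidifies the lysosome, had log2 changes of 0.06, 0.0027 and -0.08 in DKO and none passed the test.

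Of the 9 genes of the autophagosome machinery, 2 rose in DKO. Ulk1 encodes the kinase that starts autophagy when mTORC1 is inactive (Entrez 22241, chromosome 5, 110784489 to 110810120). It had 140.2 and 135 CPM in clone 1 and 125 and 111 CPM in clone 2, against 87.8 and 102 CPM in the control. All deleted libraries lay above both control libraries, with clone 2 replicate 2 closest to the control. The mean was 128 ± 12.8 CPM in DKO (SD, n = 4) and 94.9 ± 10.1 CPM in the control (SD, n = 2), a log2 change of 0.43 (SE 0.101, adjusted p = 0.025). The change was 0.54 in clone 1 (adjusted p = 8.3e-04) and 0.32 in clone 2 (adjusted p = 0.023). The DKO call was lost without control replicate 1 (0.33, adjusted p = 0.27), without control replicate 2 (0.55, adjusted p = 0.078) and without clone 1 replicate 2 (adjusted p = 0.054). The clone 2 call was lost without control replicate 1 (adjusted p = 0.18) or clone 2 replicate 1 (0.22).

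Gabarapl1 had the largest increase of the set. It encodes a GABARAP-family protein that is attached to autophagosome membranes (Entrez 57436, chromosome 6, 129533192 to 129542331). It had 17.9 and 13.7 CPM in clone 1 and 22.2 and 20.1 CPM in clone 2, against 10.01 and 9.39 CPM in the control, so no deleted library reached down to the control. The mean was 18.5 ± 3.65 CPM in DKO (SD, n = 4) and 9.70 ± 0.445 CPM in the control (SD, n = 2), a log2 change of 0.93 (SE 0.178, adjusted p = 0.0098). It was 0.70 in clone 1 (SE 0.140, adjusted p = 0.0040) and 1.12 in clone 2 (SE 0.139, adjusted p = 1.3e-04), and clone 2 against clone 1 gave 0.42 (adjusted p = 0.090).

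Gabarapl1 was the only one of the 34 genes on chromosome 6, and most of that chromosome moved with it. Over the 709 tested genes of chromosome 6 the median log2 change, relative to that of all tested genes, was 0.48 in DKO, 0.44 in clone 1 and 0.51 in clone 2. Of these 709 genes, 54 (7.62%) had a larger change than Gabarapl1 in DKO, 117 (16.5%) in clone 1 and 43 (6.06%) in clone 2. After the median of its own chromosome was subtracted from every gene, the change of Gabarapl1 was 0.45 in DKO (adjusted p = 0.15) and 0.26 in clone 1 (adjusted p = 0.27), and neither was called, while the call in clone 2 held. The cause of the shift along chromosome 6 was not tested. Chromosome 3 had a median of 0.18 in DKO and holds none of the 34 genes, and the other 18 chromosomes apart from Y lay between -0.07 and 0.06 in DKO. The Gabarapl1 call in DKO was also lost if control replicate 1 (adjusted p = 0.11) or control replicate 2 (adjusted p = 0.12) was left out, and the call in clone 1 without clone 1 replicate 1 (adjusted p = 0.053).

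**Figure D3:**
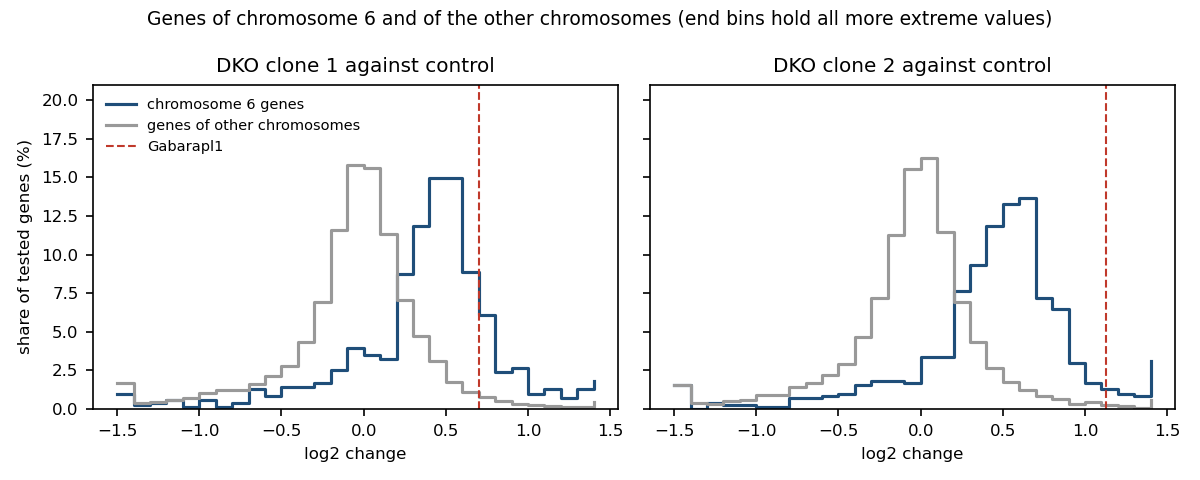
Share of tested genes by log2 change in bins, for chromosome 6 and for the other chromosomes, in clone 1 against control (left) and clone 2 against control (right), with the change of Gabarapl1 as a dashed line. The chromosome 6 genes are shifted to the right in both panels, with medians of 0.44 and 0.51, and Gabarapl1 lies right of that peak.

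Gabarapl2 encodes another protein of the same family (Entrez 93739, chromosome 8, 111940703 to 111952915). It had 147 and 163 CPM in clone 1 and 176 and 184 CPM in clone 2, against 201 and 179 CPM in the control. It fell by 0.29 on the log2 scale in clone 1 (SE 0.0784, adjusted p = 0.023), a call lost without control replicate 1 (-0.20, adjusted p = 0.19) and without clone 1 replicate 1 (adjusted p = 0.17), and the change was -0.07 in clone 2 (adjusted p = 0.58) and -0.18 in DKO (adjusted p = 0.28). RefSeq names a pseudogene of Gabarapl2 as well. Sqstm1, which encodes the cargo receptor p62, had 207 and 217 CPM in clone 1 and 215 and 214 CPM in clone 2, against 195 and 224 CPM in the control, a spread within that of the control libraries (log2 change 0.03, adjusted p = 0.87). The remaining 5 had log2 changes between -0.08 for Becn1, which encodes Beclin 1, and 0.20 for Map1lc3a, and none passed the test. Of the LC3 pair, Map1lc3b had 109 to 130.4 CPM in the DKO libraries and 106 and 123 CPM in the control, and Map1lc3a had 6.25 to 9.80 CPM in the DKO libraries and 6.46 and 6.91 CPM in the control.

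None of the 3 genes of transcriptional control was called in DKO against control. Tfeb (Entrez 21425, chromosome 17, 47737037 to 47792416) had 26.1 and 27.6 CPM in clone 1 and 23.5 and 24.8 CPM in clone 2, against 20.6 and 20.8 CPM in the control. All deleted libraries lay above both control libraries, and the log2 change in DKO was 0.30 (SE 0.0961, adjusted p = 0.086). Tfeb rose in clone 1 (0.37, adjusted p = 0.017), and gave 0.22 in clone 2 (adjusted p = 0.14). The call in clone 1 was lost without control replicate 1 (adjusted p = 0.079), control replicate 2 (0.056) or clone 1 replicate 2 (0.088). Tfe3, the factor related to Tfeb, had 37.8 and 40.8 CPM in clone 1 and 39.3 and 37.6 CPM in clone 2, against 35.5 and 36.0 CPM in the control (log2 change 0.12, adjusted p = 0.41). Flcn had 42.2 and 47.2 CPM in clone 1 and 39.3 and 35.4 CPM in clone 2, against 38.6 and 39.2 CPM in the control, and the groups overlapped (log2 change 0.08, adjusted p = 0.73).

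Clone by clone, 8 genes rose and 2 fell in clone 1 against control. Those that rose were Cd63, Ctsl, Hexa, Psap, Tfeb, Ulk1, Gabarapl1 and Ctsz, and those that fell were Ctsc and Gabarapl2. The background in clone 1 was 8.79% of all tested genes higher and 6.47% lower. In clone 2 against control, Ctsc, Ctsl, Psap, Ulk1, Gabarapl1 and Ctsz rose and Lamp1 fell, with a background of 7.89% higher and 7.08% lower. The clones share the control libraries, so their values against control are not independent of each other. The median log2 change of the 33 genes was 0.12 in clone 1 and 0.10 in clone 2. In clone 2 against clone 1, which does not use the control, Ctsc was higher and Hexa and Mcoln1 were lower, with a background of 2.53% higher and 3.77% lower and a median of -0.03 over the 33.

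**Figure D4:**
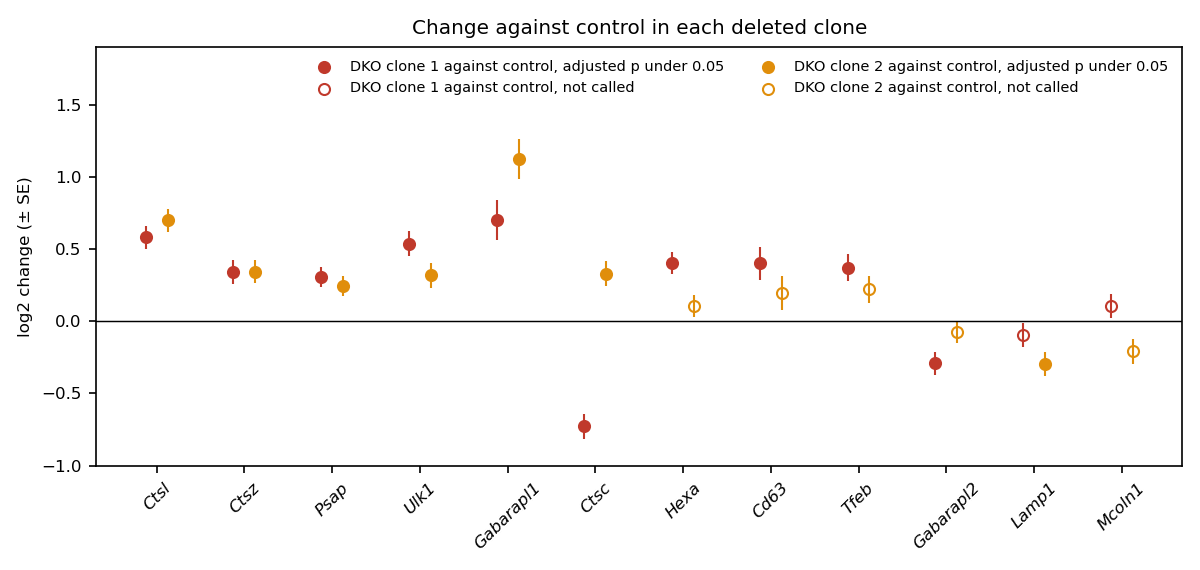
Log2 change ± SE against control in clone 1 and clone 2 for the 12 genes called in any comparison, with filled points where the adjusted p was under 0.05. Ctsl, Ctsz, Psap, Ulk1 and Gabarapl1 are filled and above 0 in both clones, and Ctsc is filled on opposite sides of 0.

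The 8 genes whose windows hold TCACGTG had log2 changes between -0.19 and 0.16 in DKO, with a median of 0.09, and none was called in DKO or in clone 1. In clone 2, Lamp1 was the 1 gene of the 8 that was called. The 20 tested genes whose windows lack it had a median of 0.10 and included all 5 called in DKO, of which Ctsl and Ulk1 have a window only at an inner start. Over all tested genes 5.06% were called higher and 3.62% lower in DKO. At these shares the lack of calls among 8 genes shows little, and the medians were close. The Ctsl window holds CACGTG without the flanking T.

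Around these members, 7 lists of other genes of the pathway with 145 genes were examined, of which 137 were tested. In DKO against control 10 rose and 3 fell, with a median log2 change of 0.06, beside the background of 5.06% higher and 3.62% lower. Of the 10 that rose, 4 lie on chromosome 6 and 1 on chromosome 3. After the same centring by chromosome, the 4 on chromosome 6 were no longer called. Of the 13 calls, 3 held without control replicate 1 and 5 without control replicate 2.

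Among 33 other lysosomal hydrolases and cofactors, Hgsnat alone was called. It encodes the acetyltransferase of heparan sulfate breakdown, and had 39.3 and 34.6 CPM in clone 1 and 32.7 and 30.9 CPM in clone 2, against 23.2 and 19.1 CPM in the control (log2 change 0.70, adjusted p = 0.0060). The call was lost without control replicate 2 (adjusted p = 0.10). Among 18 other membrane proteins and channels, Laptm4b alone was called, and it fell. It encodes a lysosomal transmembrane protein and had 20.7 and 21.3 CPM in clone 1 and 23.3 and 19.0 CPM in clone 2, against 32.9 and 33.95 CPM in the control (log2 change -0.67, adjusted p = 0.0027).

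Of the 9 genes that sort enzymes to lysosomes, M6pr rose and Igf2r fell. Both encode receptors for mannose 6-phosphate, the tag on lysosomal enzymes. M6pr had 284 and 266 CPM in clone 1 and 303 and 296 CPM in clone 2, against 185 and 190.0 CPM in the control (log2 change 0.62, adjusted p = 0.0010), and it lies on chromosome 6, where its centred change was 0.14 (adjusted p = 0.22). Igf2r had 128 and 126 CPM in clone 1 and 138 and 133 CPM in clone 2, against 171 and 152 CPM in the control (log2 change -0.29, adjusted p = 0.031), and its call was lost without control replicate 1 (adjusted p = 0.32), control replicate 2 (0.070), clone 1 replicate 1 (0.052) or clone 1 replicate 2 (0.067).

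Of 18 other subunits of the proton pump, Atp6v1e1 rose, and of 11 other autophagy receptors, Tax1bp1 rose. Both lie on chromosome 6. Atp6v1e1 changed by 0.58 (adjusted p = 0.0041), or 0.11 after centring (adjusted p = 0.57), and Tax1bp1 by 0.50 (adjusted p = 0.0018), or 0.03 after centring (adjusted p = 0.84). Each call was also lost without control replicate 1 (adjusted p = 0.094 for Atp6v1e1 and 0.051 for Tax1bp1).

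Of 29 other core autophagy genes, 3 rose and 1 fell. Atg7, which encodes the enzyme that activates LC3 and GABARAP proteins for attachment to lipid, lies on chromosome 6 and had a log2 change of 0.69 (adjusted p = 0.0048), or 0.22 after centring (adjusted p = 0.32), with an adjusted p of 0.098 without control replicate 1. Atg16l2 changed by 0.78 (adjusted p = 0.029), at 4.57 to 6.29 CPM in the DKO libraries and 2.82 and 3.35 CPM in the control. Wdr45, a relative of Wipi1, changed by 0.40 (adjusted p = 0.035). The gene that fell, named after its value was seen, was Atg14, a partner of Beclin 1 (log2 change -0.43, adjusted p = 0.044). Its call was lost after centring (adjusted p = 0.064) and without control replicate 1 (0.19), control replicate 2 (0.29), clone 2 replicate 1 (0.088) or clone 2 replicate 2 (0.056). The calls of Atg16l2 and Wdr45 were lost without control replicate 1 (adjusted p = 0.25 for Atg16l2 and 0.23 for Wdr45), without control replicate 2 (0.12 for Atg16l2 and 0.19 for Wdr45), that of Atg16l2 without clone 1 replicate 2 (0.060), and that of Wdr45 without clone 2 replicate 1 (0.076) or replicate 2 (0.059).

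Of 19 other genes of the TFEB family and of mTORC1 control at the lysosome, 3 rose and none fell. Rragd encodes RagD, a GTPase that recruits mTORC1 and TFEB to the lysosome. It had 168 and 158 CPM in clone 1 and 115 and 116 CPM in clone 2, against 84.6 and 89.0 CPM in the control, so every deleted library lay above both control libraries and clone 1 lay highest (log2 change 0.68, adjusted p = 0.020). Fnip2, which encodes a partner of folliculin and lies on chromosome 3, changed by 0.52 (adjusted p = 0.0028), and Mtor, which encodes the kinase of mTORC1, by 0.25 (adjusted p = 0.036). All 3 calls were lost without control replicate 1 (adjusted p = 0.20 for Rragd, 0.059 for Fnip2, 0.24 for Mtor) and without control replicate 2 (0.15 for Rragd, 0.054 for Fnip2, 0.17 for Mtor). The call of Mtor was also lost without any 1 of the 4 DKO libraries, at adjusted p between 0.057 and 0.093, and with no filter on low counts (adjusted p = 0.059).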

How the data were processed

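The authors deposited a table of raw counts by Entrez ID, with gene widths, from reads aligned with STAR 2.5.0a to mm10 (GRCm38), per the submitters' processing notes. The counting tool, annotation release, counted strand and the handling of multiply matching reads were not given in the sources used here. Of 24467 IDs, 24437 matched a RefSeq gene table of the same build, which gave symbols and positions.

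The tests used edgeR 4.0.16 in R 4.3.3: filterByExpr on 3 groups (14771 genes kept), TMM scaling (factors 0.992 to 1.01), and the two-sided quasi-likelihood F test with Benjamini-Hochberg adjustment at 0.05. CPM values are TMM-scaled. DKO against control used genotype alone (4 residual degrees of freedom), and the clone contrasts used 3 groups (3 residual degrees of freedom). Standard errors came from the F statistic. The fits were also run on simulated counts with the spread seen within clones and none between clones, and their outcome is not given here.

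Alternatives were RLE and library-size scaling, no filter, a 2 CPM minimum, DESeq2 1.42.0, limma-voom with limma 3.58.1, a replicate block, chromosome centring and leaving out each library. Exon overlaps came from GENCODE M21. The members and lists were chosen with earlier results of these data known. Values per library are given for members called in any contrast and for those of each role with the highest CPM per kb, and for at most 3 called genes of each pathway list. Promoter sequences are from RefSeq (GRCm38.p6).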

Additional observations from a re-analysis of the deposited data

Results flagged for a closer look

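The effects of the deleted clones against the shared control differed for 3 of the 33 tested genes, in the contrast of clone 2 against clone 1. Of these, 1 was higher (3.03%) and 2 were lower (6.06%), beside 2.53% higher and 3.77% lower over all tested genes. Ctsc gave a log2 difference of 1.06 (SE 0.0873, adjusted p = 3.1e-05), and its clones lay on opposite sides of the control. Hexa gave -0.30 (SE 0.0760, adjusted p = 0.036) and Mcoln1 gave -0.32 (SE 0.0845, adjusted p = 0.042). The Hexa and Mcoln1 differences were each lost in some of the fits that left out 1 library. In none of the 34 genes did a single DKO library stand apart from the other 3 by Dixon's test. This test takes the libraries of both clones as 1 sample and can hardly flag a library where the clones differ, as in Ctsc, so nothing is concluded from it.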

How the results depend on the processing

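No call of a member changed its direction under any of the 14 alternatives. Of the 25 member calls over the 4 comparisons, all 25 held with DESeq2, limma-voom, RLE scaling, a 2 CPM minimum or no filter, 24 with library size only, 22 with each chromosome centred and 22 with the replicate block. Leaving out single libraries left between 16 and 21. In DKO against control the 5 higher calls became 3 with the replicate block and 1 to 5 when a library was left out, and 0 were lower throughout. The count reached 1, Ctsl, when either control library was left out. In clone 1 against control, leaving out a library gave 4 to 8 higher and 1 to 2 lower calls, and in clone 2 against control 2 to 6 higher and 0 to 1 lower. In clone 2 against clone 1, higher calls numbered 3 with no filter and 1 to 2 without a library, and lower calls numbered 1 with library size only, the block or centring and 0 to 2 without a library. The cause of these changes was not tested. The replicate block ended the DKO calls of Psap (adjusted p = 0.052) and Ulk1 (0.053) and the Mcoln1 call between the clones (0.058), but replicate numbers did not pair the samples: libraries with the same number had correlations of deviations of 0.028, -0.083 and 0.026. The median log2 change of the members ranged from 0.07 to 0.12 in DKO, 0.07 to 0.15 in clone 1 and 0.08 to 0.13 in clone 2. Of the 13 pathway calls in DKO, the block ended those of Atg14 (adjusted p = 0.084), Atg16l2 (0.054), Wdr45 (0.071) and Mtor (0.073). Most calls in DKO against control depended on having both control libraries, and the reason was not tested. The largest standard error of a member was that of Ctsc in DKO against control (0.289), where the clones differ, and that of Wipi1, the tested member with the lowest level, in the other 3 comparisons (0.242 to 0.247).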

Other observations

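Among the 137 tested genes of the pathway lists, 8 were higher (5.84%) and 9 lower (6.57%) in clone 2 against clone 1, beside 2.53% higher and 3.77% lower over all tested genes. The genes named here were chosen after their values were seen. Mitf, a relative of Tfeb that lies on chromosome 6, had 79.9 and 83.8 CPM in clone 2 and 47.1 and 45.4 CPM in clone 1, against 43.6 and 33.6 CPM in the control, and the difference between the clones was 0.82 on the log2 scale (SE 0.106, adjusted p = 8.0e-04). Rragd had 115 and 116 CPM in clone 2 and 168 and 158 CPM in clone 1, a log2 difference of -0.49 (SE 0.0687, adjusted p = 0.0013). Autophagy receptors moved in both directions between the clones. Retreg1, a receptor for the endoplasmic reticulum, had 5.34 and 5.36 CPM in clone 2 and 2.30 and 2.91 CPM in clone 1 (1.04, adjusted p = 0.0075). Bnip3, a receptor for mitochondria, had 16.6 and 11.998 CPM in clone 2 and 8.90 and 5.10 CPM in clone 1 (1.03, adjusted p = 0.020), with replicates that differed within each clone. Optn, which encodes the receptor optineurin, had 67.2 and 66.2 CPM in clone 2 and 89.9 and 96.7 CPM in clone 1, against 65.3 and 65.2 CPM in the control, a log2 difference of -0.48 (SE 0.0728, adjusted p = 0.0020).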
